A study of Mus musculus with 2 samples.

Results

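Among fibro/adipogenic progenitors (FAPs), the mesenchymal cells that lie between muscle fibers, a group marked by Fmo2, Angpt2 and Stc1 was chosen by its counts of unique molecular identifiers (UMIs, each standing for 1 captured RNA molecule). A cell was a member when it held 2 or more UMIs of Fmo2, Angpt2 and Stc1 together and stayed under 3 upper limits. The first limit was fewer than 25 UMIs of Pi16, Sema3c, Anxa3 and Efemp1 per 10000 UMIs of the cell, a sum called P here, which is high in Dpp4+ FAPs. The others were fewer than 5 UMIs of Cxcl14 per 10000, which set aside Cxcl14+ FAPs, and fewer than 2 UMIs of Hmcn1, Meox1 and Etv4 together. Of 8481 cells, 668 (7.88%) were members. These 11 genes chose the cells, so their levels are a description, and no difference between members and other cells was tested.

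The data were 2 scRNA-Seq libraries of FAPs, sorted as Lin-Vcam-Sca1+ cells from limb muscle of 3-week-old C57BL/6 mice, 1 of genotype Prx1-Cre;Bap1f/f and 1 of genotype Bap1f/f. The number of mice behind each library is not given in the sources used here. They are named here after their labels, Bap1ΔMPC and Bap1WT. Both genotypes carried the floxed Bap1 alleles and the first also carried Prx1-Cre, a driver active in limb mesenchyme, and so in FAPs and in other connective tissue of the limb. The study asked what FAPs lose when they lack Bap1, a nuclear deubiquitinase, and how this bears on motor neurons. Each genotype was measured once, so differences between genotypes carry no p-value, and the animals, the sort and the genotype cannot be told apart.

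The library labelled Bap1WT held 4103 cells and 51015705 UMIs, and the library labelled Bap1ΔMPC 4378 cells and 49540066 UMIs, with medians of 12232 and 11017.5 UMIs per cell. Members were about as deep as the cells they were compared with, at medians of 11882 and 11491 UMIs against 11607.5 and 10669. The libraries shared 5 cell barcodes, and 1 of these cells was a member in the library labelled Bap1WT. Bap1 had 897 UMIs in the library labelled Bap1WT and 1072 in the library labelled Bap1ΔMPC, so its count was not lower under the label of the deletion. The reads come from the 3' end of the RNA and which exons were removed was not read from them, so this count does not check the labels. By other measurements the study reports disruption of Bap1 in FAPs of Bap1ΔMPC mice.

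Fmo2 encodes a flavin-containing monooxygenase, an enzyme that oxidizes small compounds of nitrogen and sulfur. Angpt2 is angiopoietin 2, a secreted ligand of the endothelial receptor Tek that opposes angiopoietin 1 in many settings, and Stc1 is stanniocalcin 1, a secreted glycoprotein first known from mineral balance in fish. FAPs make muscle matrix, supply growth factors to satellite cells, can turn into adipocytes or fibroblasts, and hold subpopulations that differ in their secreted proteins. On mm10 Fmo2 lies at chr1:162874317-162898726 on the minus strand, Angpt2 at chr8:18690263-18741562 on the minus strand and Stc1 at chr14:69029238-69041804 on the plus strand, on separate chromosomes.

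Members made up 586 of 4103 cells of the library labelled Bap1WT, or 14.3% (exact Clopper-Pearson 95% interval 13.2 to 15.4), and 82 of 4378 cells of the library labelled Bap1ΔMPC, or 1.87% (1.49 to 2.32). The first share was 7.63 times the second, with an interval of 6.04 to 9.73 that covers counting error only. Of the cells under all 3 upper limits, 1702 and 1804, members were 34.4% and 4.55%. Cells with exactly 1 UMI of the 3 genes, just outside the rule, numbered 228 and 93, and those with exactly 2, just inside it, 132 and 23. The ratio of shares lay between 7.11 and 8.21 when the UMI minimum or an upper limit was set differently and when each cell was thinned to 6000 UMIs, at which depth the shares were 10.6% and 1.35%. With Fmo2 alone at 2 or more UMIs, an alternative added after the data were seen, the shares were 12.7% and 1.42%.

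Fmo2 was the gene of the rule that most members carried. It had a UMI in 572 of 586 members (97.6%) of the library labelled Bap1WT and in 71 of 82 (86.6%) of the library labelled Bap1ΔMPC. Angpt2 had a UMI in 31.1% and 34.1% of members and Stc1 in 33.1% and 20.7%. Fmo2 was the only one of the 3 in 282 (48.1%) and 42 (51.2%) members, and all 3 were present in 69 and 3. Most members therefore met the label by Fmo2, and few held all 3 of its genes. Over all cells, members included, Fmo2 had a UMI in 29.3% of the library labelled Bap1WT and 4.36% of the library labelled Bap1ΔMPC. The same shares were 5.51% and 1.71% for Angpt2 and 6.73% and 1.67% for Stc1. Whether the share of members differs beyond this lower detection of Fmo2 in the whole library was not tested.

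Inmt, an enzyme that methylates indoleamines, and Art4, a surface protein of the ADP-ribosyltransferase family, were given as markers of these cells together with the rule, which did not use them. The cells were chosen with earlier results of these data known, so the levels of both markers are a description. Members were set against cells of the same library with P under 25 and 0 UMIs of Fmo2, Angpt2 and Stc1. These 1840 and 2865 cells are called comparison cells. Inmt was at 83.8 against 11.7 CPM (counts per 1000000 of the summed UMIs) in members and comparison cells of the library labelled Bap1WT, and at 19.8 against 3.61 CPM in the library labelled Bap1ΔMPC. Art4 was at 29.1 against 0.593 CPM and 15.6 against 0.633 CPM, and pairs of values written in this way give members against comparison cells, first in the library labelled Bap1WT and then in the library labelled Bap1ΔMPC. Both markers were higher in members in each library, and both were thinly spread, with an Inmt UMI in 24.9% and 11.0% of members and an Art4 UMI in 21.8% and 12.2%.

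Members kept the genes by which FAPs are known. Pdgfra, the receptor used to identify FAPs, was at 293 against 410.5 CPM in members and comparison cells of the library labelled Bap1WT and at 282 against 356 CPM in the library labelled Bap1ΔMPC. Dcn, a matrix proteoglycan, was at 15730.3 against 14754 CPM and 13212 against 12681 CPM, and Ly6a, which encodes the sorted antigen Sca1, at 920.0 against 1363 CPM and 1083 against 1632 CPM. Before deposit the study removed cells with high levels of markers of other muscle cell types, and Ptprc, which marks leukocytes, had 0 UMIs in all 8481 cells, so low counts of such markers were set before members were chosen.

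Genes were compared within each library where their mean normalized expression was over 0.01 and 10 or more UMIs were expected in members. The expected number was taken at the pooled rate of members and comparison cells. In the library labelled Bap1ΔMPC, where members were few, this left out genes held largely by members, such as Art4 and Abcc9. In the library labelled Bap1WT 272 of 11475 genes (2.37%) were over 2-fold higher in members and 774 (6.75%) over 2-fold lower, and in the library labelled Bap1ΔMPC 113 of 7992 (1.41%) were higher and 398 (4.98%) lower. In both libraries 46 of 7984 genes (0.576%) were over 2-fold higher and 169 (2.12%) over 2-fold lower. The balance of higher and lower genes depends on the minimum. With none beyond 1 UMI, which lets in genes of few UMIs, 573 were higher and 960 lower in the library labelled Bap1ΔMPC. In both libraries these counts were 169 and 344. The exact interval of the ratio lay wholly past 2-fold for 156 higher and 316 lower genes in the library labelled Bap1WT and for 51 and 74 in the library labelled Bap1ΔMPC. The median log2 ratio of all genes compared was -0.22 and -0.13. Collagen RNA took a larger part of the UMIs of members: Col1a1 was at 38399 against 18275 CPM and 28149 against 9565 CPM and Col1a2 at 36414 against 18452 CPM and 26539 against 8953 CPM. The log2 ratio of TMM scaling factors, members over comparison cells, was -0.18 and -0.06. Under TMM scaling 380 genes were higher and 575 lower in the library labelled Bap1WT, so that 39.8% of the genes past 2-fold were higher in place of 26.0%, and in both libraries 65 were higher and 141 lower, 31.6% in place of 21.4%. Comparison cells were not held to the limits on Cxcl14 and on Hmcn1, Meox1 and Etv4. With those limits set on them too, 321 genes were higher and 620 lower in the library labelled Bap1WT. The counts were then 128 and 416 in the library labelled Bap1ΔMPC and 59 and 178 in both.

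Genes that led in 1 library were then measured in the other. Of the 30 genes with the highest ratio in the library labelled Bap1WT, 28 were higher in members of the library labelled Bap1ΔMPC and 21 over 2-fold, with a median log2 ratio of 1.23 against -0.13 for all genes, of which 1.42% were over 2-fold. Of the 30 genes that led in the library labelled Bap1ΔMPC, 30 were higher in members of the library labelled Bap1WT and 19 over 2-fold, with a median of 1.36 against -0.22 and 1.08%. In the first set Phex had the lowest ratio, -0.13, and Gdf10 the highest, 3.48. That set was headed in its own library by the hemoglobin gene Hbb-bs, at a log2 ratio of 4.15. There 1 cell held 1320 of the 1378 hemoglobin UMIs of members, and in the other library Hbb-bs was at 0.34.

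Pltp, the phospholipid transfer protein that moves lipids between lipoproteins, had the highest ratio among genes abundant enough to be compared in both libraries, ranked by the less extreme of the libraries. It was at 147 against 13.3 CPM in members and comparison cells of the library labelled Bap1WT (log2 ratio 3.46, interval 3.27 to 3.65) and at 113 against 14.7 CPM in the library labelled Bap1ΔMPC (2.94, 2.63 to 3.25). Fam46c, a poly(A) polymerase, was at 71.4 against 7.03 CPM and 65.7 against 10.2 CPM. Mmp3, the secreted matrix protease stromelysin 1, was at 389.9 against 61.7 CPM and 331 against 44.2 CPM. Each of the 3 genes was more than 6 times as high in members as in comparison cells of its library, and no single cell held more than 17.9% of a gene's UMIs in members.

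Secreted ligands and antagonists were among the leading genes. Gdf10, a ligand of the TGF-beta superfamily also called Bmp3b, was the most abundant of them, at 684 against 139.7 CPM in the library labelled Bap1WT (log2 ratio 2.29, interval 2.23 to 2.36) and 656 against 58.8 CPM in the library labelled Bap1ΔMPC (3.48, 3.35 to 3.61). Its levels in members of both libraries were close, and its level in comparison cells was lower in the library labelled Bap1ΔMPC. Hhip, a receptor that binds Hedgehog ligands without passing the signal on, was at 135 against 17.2 CPM and 219.9 against 40.3 CPM. Cpz, a carboxypeptidase with a Wnt-binding domain, was at 455 against 103 CPM and 263 against 26.3 CPM.

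The other leading genes covered a channel, a protease precursor and a receptor. Kcnj8, the pore of a potassium channel gated by ATP, was at 43.03 against 7.71 CPM and 55.2 against 10.7 CPM, and Abcc9, the regulatory subunit of that channel, at 92.5 against 8.94 CPM and 47.95 against 9.18 CPM. The complement protease precursor C2 was at 251 against 32.6 CPM and 173 against 34.1 CPM, the ephrin receptor Epha3 at 95.8 against 20.5 CPM and 102 against 21.4 CPM and Ndrg2 at 162 against 38.6 CPM and 113 against 32.9 CPM. Abcc9 was singled out after its values were seen, as were 4 more genes. These were the transcription factors Gata6, at 49.1 against 4.15 CPM and 38.6 against 8.296 CPM, and Prdm6, at 30.2 against 2.51 CPM and 27.1 against 0.697 CPM, the glutamate receptor subunit Gria4, at 23.3 against 0.502 CPM and 43.8 against 3.93 CPM, and the Notch ligand Dner, at 35.2 against 3.103 CPM and 85.5 against 3.39 CPM. Each of these 5 genes was more than 4 times as high in members as in comparison cells of its library.

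**Figure D1:**
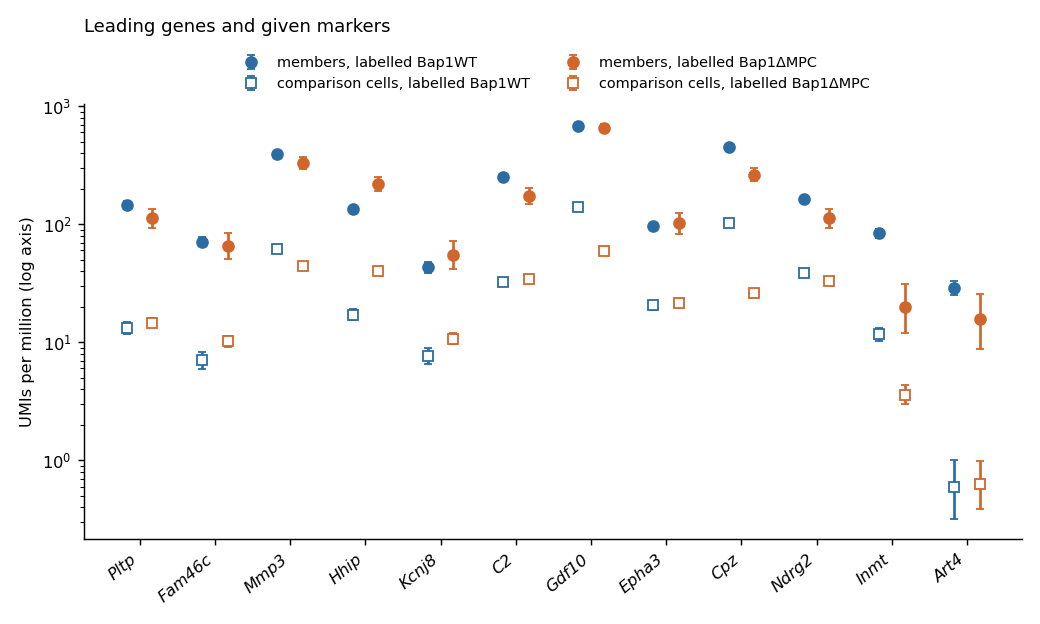
CPM (log axis) for the 10 leading genes and the markers Inmt and Art4 in members and comparison cells of each library, with exact 95% intervals. In each library every gene lies higher in members than in comparison cells, and Art4 has the widest gap.

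The share of cells with a UMI was read at 1 depth, with each cell thinned to 6000 UMIs and shallower cells, 224 and 382, left out. C2 had a UMI in 61.02%, 11.5% and 1.81% of members, comparison cells and cells with P of 25 or more in the library labelled Bap1WT (76.1%, 17.4% and 4.57% before thinning). In the library labelled Bap1ΔMPC these shares were 51.4%, 13.8% and 3.77% (69.5%, 21.2% and 5.52% before). The Gdf10 shares were 79.1%, 33.7% and 6.05% in the library labelled Bap1WT (84.5%, 44.2% and 11.4% before) and 71.6%, 12.6% and 2.66% in the library labelled Bap1ΔMPC (75.6%, 18.1% and 4.16% before). No other cell type was set apart in these data, so the share that free RNA gives in a cell type without these genes was not measured. Both genes had their lowest share in cells with high P, but Cpz had a UMI in 73.95%, 22.9% and 47.9% of the 3 groups in the library labelled Bap1WT and 58.1%, 9.903% and 16.4% in the library labelled Bap1ΔMPC (81.2%, 31.2% and 57.7% and 63.4%, 13.9% and 22.1% before), with more in cells with high P than in comparison cells.

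The summed level of the 10 leading genes was mostly higher in cells with more UMIs of the 3 genes of the rule, which are not among the 10. In the library labelled Bap1WT its median was 24.1 UMIs per 10000 in members, and 3.001, 6.31, 11.8, 16.9, 26.8 and 36.2 in cells under the upper limits with 0, 1, 2, 3 or 4, 5 to 9 and 10 or more UMIs of the 3 genes. In the library labelled Bap1ΔMPC the medians were 1.23, 3.48, 14.99, 12.2, 28.7 and 37.8, over 1629, 93, 23, 23, 24 and 12 cells. The step from 2 to 3 or 4 UMIs in the library labelled Bap1ΔMPC went the other way. Cells with 10 or more UMIs were close between the libraries, and cells with 0 were lower in the library labelled Bap1ΔMPC. The 10 genes were chosen on these cells, so this describes a graded range. There were 119 and 51 cells within 10% of 12.5 UMIs per 10000, the lower quartile of members of the library labelled Bap1WT.

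**Figure D2:**
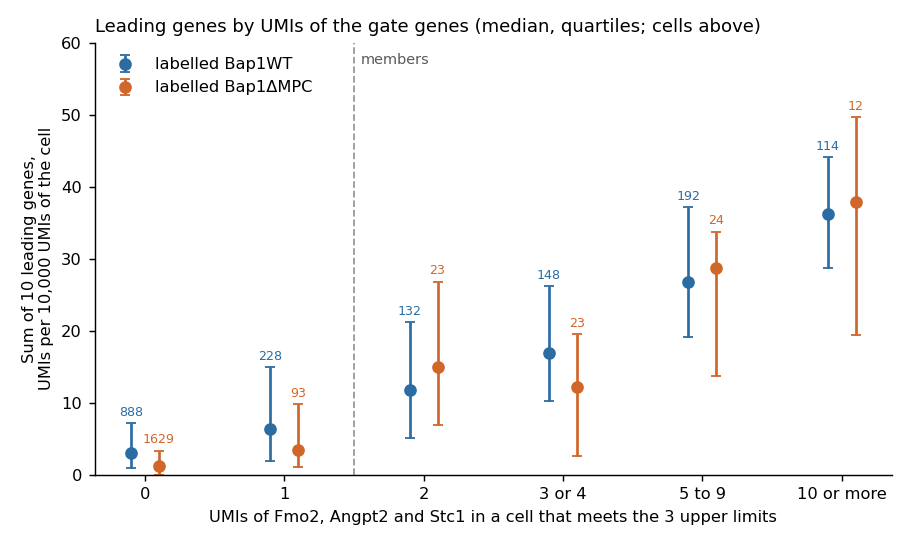
Sum of the 10 leading genes in UMIs per 10000 UMIs of the cell (median and quartiles) by the number of UMIs of Fmo2, Angpt2 and Stc1, in cells under the 3 upper limits of each library. Medians ran from 3.00 to 36.2 in the library labelled Bap1WT and from 1.23 to 37.8 in the library labelled Bap1ΔMPC.

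That sum also counts like cells without the 3 genes of the rule, an alternative added after the data were seen. At 12.5 or more per 10000 with P under 25 it took 718 cells (17.5%, interval 16.3 to 18.7) of the library labelled Bap1WT and 246 cells (5.62%, 4.96 to 6.34) of the library labelled Bap1ΔMPC. The limits on Cxcl14 and on Hmcn1, Meox1 and Etv4 were not set here, so these cells came from all 3053 and 3127 with P under 25. The ratio of these shares was 3.11, lower than the 7.63 of members, which were held to all 3 upper limits. Of the cells taken, 143 (19.9%) and 165 (67.1%) had 0 UMIs of Fmo2, Angpt2 and Stc1. In the library labelled Bap1ΔMPC most cells with a high sum thus fell outside the rule.

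Promoters of leading genes are shown because these genes were high in the same cells. RefSeq windows of 300 bases on GRCm38.p6, from 250 before to 50 after an annotated start, were found for 8 of the 10 genes, 10 windows in all. On both strands TATAAA was in 3 of them (Pltp, Mmp3 and Ndrg2) and in 13.6% of all 32851 windows, AGATAA, which GATA factors are known to bind, in 2 (Epha3 and Cpz) and in 11.2%, and GACCACCC, the core of the GLI motif, in 0 and in 0.807%. The windows of Pltp (chr2:164857659-164857958, minus strand) and Mmp3 (chr9:7445572-7445871, plus strand) have the TATAAA match in capitals, and the window of Cpz (chr5:35525577-35525876, minus strand) has the match to the reverse complement of AGATAA in capitals, each 5' to 3' on the strand of the gene.
Pltp: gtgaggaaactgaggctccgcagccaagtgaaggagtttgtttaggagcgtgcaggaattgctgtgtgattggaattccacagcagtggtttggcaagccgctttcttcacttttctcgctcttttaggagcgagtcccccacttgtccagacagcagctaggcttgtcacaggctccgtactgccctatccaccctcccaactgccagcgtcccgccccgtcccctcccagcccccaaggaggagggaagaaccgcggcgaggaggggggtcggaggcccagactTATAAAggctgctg
Mmp3: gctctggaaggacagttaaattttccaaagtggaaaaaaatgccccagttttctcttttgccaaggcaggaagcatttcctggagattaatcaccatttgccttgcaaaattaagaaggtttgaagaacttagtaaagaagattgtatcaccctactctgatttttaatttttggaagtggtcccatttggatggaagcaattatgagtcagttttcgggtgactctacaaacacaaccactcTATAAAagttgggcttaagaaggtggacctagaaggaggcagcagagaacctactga
Cpz: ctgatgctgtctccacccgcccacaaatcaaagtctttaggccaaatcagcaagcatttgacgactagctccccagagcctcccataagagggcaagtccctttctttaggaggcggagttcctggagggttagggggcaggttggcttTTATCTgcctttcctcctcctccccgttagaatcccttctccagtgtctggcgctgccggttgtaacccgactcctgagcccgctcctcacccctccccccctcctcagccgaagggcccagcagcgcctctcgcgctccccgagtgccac
Relative to the annotated start the match begins at position 37 in Pltp, -7 in Mmp3 and -101 in Cpz. A match is a run of letters and not a measured binding site.

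The genes lowest in members of both libraries were Lgals7, Car3, Kcna2, Pla1a, Anxa8, Ret, Stmn4, Saa1, Limch1 and Gfra1. Ret, the receptor tyrosine kinase for ligands of the GDNF family, was at 7.59 against 89.8 CPM in members and comparison cells of the library labelled Bap1WT and at 11.5 against 92.7 CPM in the library labelled Bap1ΔMPC. Gfra1, its co-receptor for GDNF, was at 5.203 against 35.2 CPM and 4.17 against 65.1 CPM, and Pla1a, a secreted phospholipase, at 2.25 against 22.1 CPM and 6.25 against 67.7 CPM. Lgals7, Car3, Kcna2, Anxa8 and Saa1 had 5 or fewer UMIs in members of each library, so their ratios rest on few molecules. The imprinted genes H19 and Igf2, noted after their values were seen, were lower too, H19 at 214 against 1032 CPM and 312 against 1715 CPM and Igf2, a growth factor, at 1.41 against 13.6 CPM and 12.5 against 34.04 CPM.

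Lists of genes were read by counts, against the 0.576% of genes over 2-fold higher and 2.12% over 2-fold lower in both libraries. The Hedgehog pathway, a list added after the values were seen, had median log2 ratios of -0.06 and -0.20, against -0.22 and -0.13 for all genes. Of the genes on it, Hhip was over 2-fold higher in both libraries, as was the transcription factor Gli1 at 33.5 against 9.26 CPM and 39.6 against 18.7 CPM. Transcription of both is known to follow Hedgehog signaling. Ptch1, another such gene, was at 18.1 against 9.35 CPM in the library labelled Bap1WT and at 12.5 against 14.7 CPM in the library labelled Bap1ΔMPC, and the ligand Shh had 0 UMIs in members.

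In BMP and TGF-beta signaling, 2 of 31 genes were higher in both libraries, Gdf10 and the BMP antagonist Chrdl1 (145 against 44.03 CPM and 127 against 54.6 CPM), and 5 were lower, Bmp2, Bmp7, Bmper, Id1 and Tgfb2. The ligand Bmp2 was at 8.01 against 34.9 CPM and 11.5 against 39.9 CPM. In Wnt signaling, 1 of 15 was higher in both, the secreted protein Dkk3 (67.2 against 26.5 CPM and 42.7 against 16.97 CPM), and 1 was lower, the ligand Wnt11 (8.16 against 29.2 CPM and 13.6 against 28.6 CPM). Rspo1, which enhances Wnt signals, was at 18.1 against 2.14 CPM in the library labelled Bap1WT and at 14.6 against 9.34 CPM in the library labelled Bap1ΔMPC.

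Genes that act on nerves divided. Of 23 compared in both libraries, 2 were higher in members, Epha3 and the axon guidance ligand Slit3 (128 against 56.9 CPM and 96.9 against 33.5 CPM), and 6 were lower, Gfra1, Ret, Ncam1, Robo1, Pcsk2 and Sdc3. Ncam1, the neural cell adhesion molecule, was at 12.8 against 43.5 CPM and 20.8 against 58.2 CPM, and Robo1, a receptor of Slit ligands, at 6.89 against 31.6 CPM and 8.34 against 28.8 CPM.

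Markers of mural and endothelial cells were read next. In the mural list 2 of 6 genes were higher in both libraries, Kcnj8 and the receptor Notch3 (25.3 against 12.05 CPM and 46.9 against 17.7 CPM), and 2 were lower, the proteoglycan Cspg4 (12.5 against 56.2 CPM and 17.7 against 37.96 CPM) and Tagln. The summed list was at 549.7 against 354 CPM and 537 against 380.0 CPM, of which Ndufa4l2 gave 253 CPM in members of each library. Rgs5, which defines pericytes, had 15 and 3 UMIs in members, Myh11 11 and 0, and Higd1b 0 and 0. In the endothelial list 2 of 5 genes were over 2-fold higher in the library labelled Bap1WT, Pecam1 at 4.92 against 2.33 CPM and the phosphatase Ptprb at 9.14 against 2.78 CPM, and 1 was lower, with a median log2 ratio of 0.80. The same list had 0 of 3 genes higher and 1 lower in the library labelled Bap1ΔMPC, with a median of -0.82. The lower gene in both was Tek, the receptor of angiopoietins, at 11.8 against 49.2 CPM and 15.6 against 59.97 CPM, and the summed list, most of it Ly6c1, was at 318 against 486 CPM and 391 against 651 CPM. Cldn5, Emcn, Tie1 and Sox17 had 0 UMIs in members of both libraries, Cdh5 had 3 and 1, and Pecam1 35 and 0, of 113 and 241 Pecam1 UMIs in the whole libraries. The part of endothelial RNA in these values was not tested.

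The lists of immune, Schwann and muscle stem cells and of erythroid cells had no gene past 2-fold in the same direction in both libraries, and few of their genes could be compared. Summed levels were 14.2 against 13.5 CPM and 22.9 against 24.2 CPM for immune markers, 40.1 against 34.9 CPM and 118 against 103 CPM for Schwann and perineurial markers, and 48.5 against 52.3 CPM and 54.2 against 32.4 CPM for muscle stem cell markers, of which Vcam1 gave 45.8 and 52.1 CPM in members. Erythroid RNA was at 195 against 14.5 CPM and 43.8 against 29.9 CPM, and 1 cell held 1320 of the 1378 hemoglobin UMIs of members of the library labelled Bap1WT. Of 2 myofiber genes 1 was lower in both, Tnnt3, and that list summed to 32.9 against 109 CPM and 53.2 against 54.4 CPM.

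Tendon and cell cycle genes had the lowest medians of the lists with 8 or more genes compared. Of 8 tendon genes 4 were lower in both libraries, Tnmd, Chad, Cilp2 and Comp, and the medians were -1.95 and -1.24 on the log2 scale. Tnmd, the tendon membrane protein tenomodulin, was at 4.78 against 41.9 CPM and 37.5 against 85.01 CPM. Of 13 cell cycle genes 9 were lower in both, with medians of -1.51 and -1.62, among them Top2a, which untangles DNA, at 0.844 against 9.81 CPM and 4.17 against 17.1 CPM. Cells with 5 or more UMIs of that list were 0.683% (4 of 586, interval 0.186 to 1.74) of members and 2.93% (2.21 to 3.81) of comparison cells in the library labelled Bap1WT, and 4.88% (4 of 82, 1.34 to 12.02) and 5.83% (4.999 to 6.75) in the library labelled Bap1ΔMPC. The intervals cover counting error over cells of 1 library only. With 4 such members in each library, no difference between the libraries is read from them.

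Matrix genes were mixed. Of 57 interstitial matrix genes 1 was higher in both libraries, Col1a1, and 7 were lower, Col5a3, Col6a6, Col8a1, Comp, Cilp, Adamtsl2 and Adamtsl3. Of 18 basement membrane genes 1 was higher in both, the collagen IV chain Col4a4 (97.3 against 35.6 CPM and 68.8 against 17.7 CPM), and 0 were lower. The laminin chain Lamc1 was at 277 against 650.2 CPM and 363 against 706 CPM and perlecan, Hspg2, at 366 against 839 CPM and 469 against 850.3 CPM. Mgp, which inhibits calcification and was noted after its values were seen, was at 6248 against 4682 CPM in the library labelled Bap1WT and at 4505 against 906 CPM in the library labelled Bap1ΔMPC.

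Other FAP lists touch the rule itself. Of 19 Dpp4-type genes outside it 0 were higher and 6 lower in both libraries, Efhd1, Ackr3, Cd55, Limch1, Creb5 and Stmn4, and of 15 Cxcl14-type genes 1 was higher, Vit, and 1 lower, Mme. Members were limited on P and on Cxcl14 and comparison cells only on P, so nothing is read from these directions. Of 14 FAP identity genes 2 were higher, Col1a1 and the transcription factor Osr1 (194 against 58.3 CPM and 179 against 19.9 CPM). Of 24 angiogenic and vessel-directed genes 0 were higher and 2 lower, Angptl1 and placental growth factor, Pgf (6.05 against 26.1 CPM and 10.4 against 57.7 CPM). Vegfa, the main vessel growth factor, was at 68.8 against 97.5 CPM and 71.9 against 142 CPM.

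Of 24 hypoxia and glycolysis genes 0 were past 2-fold in both libraries in either direction, and the vasodilator Adm, known to respond to hypoxia, was at 206 against 102 CPM and 156 against 84.9 CPM. Of 31 immediate early and heat shock genes 0 were past 2-fold in either library. Glucocorticoid response had 0 of 20 higher and 1 lower in both, Cdkn1c, and small-molecule metabolism 0 of 19 higher and 3 lower, Ces1d, Gpx3 and Ptges. Fmo1, a relative of Fmo2, was at 124 against 107 CPM and 148 against 50.6 CPM. Complement had 1 of 12 higher, C2, and 3 lower, Masp1, Cd55 and Clu. The IGF system had 1 of 11 lower, Igf2, chemokines and cytokines 1 of 13, Il34, and adipocyte genes 2 of 10, Pparg and Car3, with 0 higher in each.

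**Figure D3:**
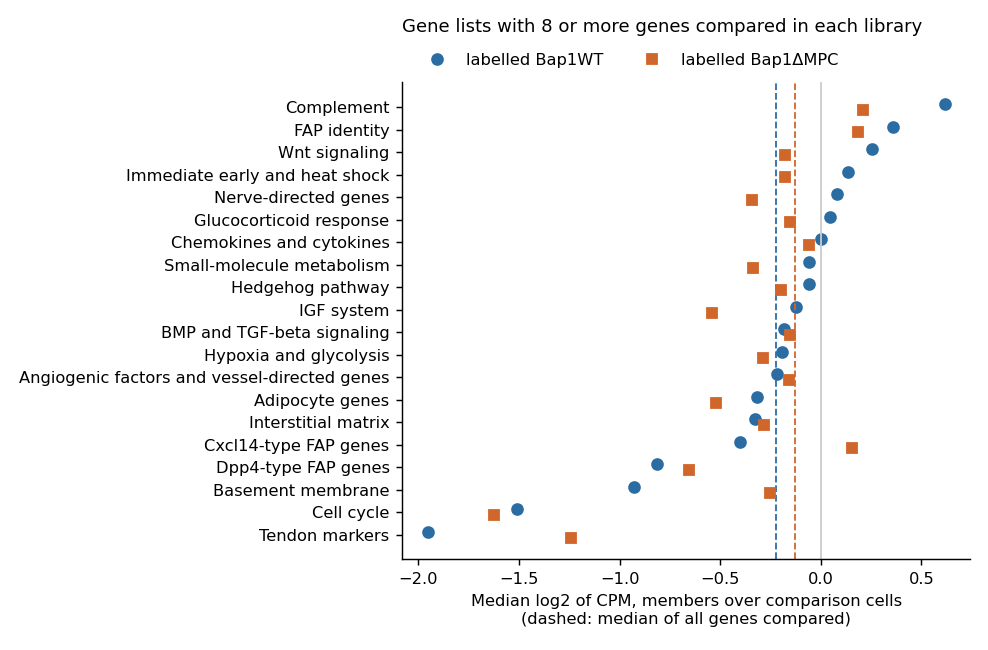
Median log2 ratio of members over comparison cells for each gene list with 8 or more genes compared in each library, with the medians of all genes compared, -0.22 and -0.13. The cell cycle and tendon lists have the lowest medians in both libraries.

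Members of the library labelled Bap1WT differed by which gene of the rule they held, and examples are given from the genes farthest apart. The 182 with an Angpt2 UMI had less Sfrp2, a Wnt-binding protein (47.5 against 419 CPM), Thbs4, a thrombospondin (2.35 against 69.8 CPM), Fmod, a matrix proteoglycan (12.2 against 118 CPM), and Kdr, a VEGF receptor (1.88 against 20.5 CPM), and more Notch3 (52.2 against 13.8 CPM), than the 404 without. Of 7847 genes compared 26 were over 2-fold higher and 85 over 2-fold lower with Angpt2. The 194 with a Stc1 UMI had more of the lipid carrier Apoe (1734 against 682 CPM) and of Rgs16, which shortens G-protein signals (57.2 against 21.6 CPM), and less Myoc (55.5 against 195 CPM) and Dlk1 (16.2 against 54.5 CPM) than the 392 without. Gdf10 was at 959 CPM with Angpt2, 856 CPM with Stc1 and 489 CPM in the 282 members with Fmo2 alone. The library labelled Bap1ΔMPC did not repeat this order. There Gdf10 was at 619, 602 and 692 CPM in the same 3 groups, of 28, 17 and 42 members. These splits use genes of the rule and are descriptions.

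Members were also set beside the cells that each upper limit removed in the library labelled Bap1WT. C2 was at 251, 5.88, 20.1 and 40.1 CPM in members, in cells with P of 25 or more, in cells with P under 25 and Cxcl14 of 5 or more per 10000, and in the remaining cells with 2 or more UMIs of Hmcn1, Meox1 and Etv4. Gdf10 was at 684, 15.6, 114 and 294 CPM in the same order, and Cpz at 455, 195, 110.0 and 35.97 CPM. All 3 genes had their highest level in members, and the next highest group was not the same for each. They are among the 10 leading genes, which were chosen for a high ratio in these members. Their levels and the sum of the 10 are therefore descriptions. Cells that held 2 or more UMIs of the 3 genes but passed the limit on Cxcl14 (75 cells) or on Hmcn1, Meox1 and Etv4 (125 cells) had medians of 5.59 and 6.86 UMIs per 10000 for the sum of the 10 leading genes, against 24.1 in members.

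Between the libraries members were compared at 3-fold, the fold of the study's methods, where a gene had 20 or more UMIs in members of both together. Of 10647 genes 108 (1.01%) were over 3-fold higher and 173 (1.62%) over 3-fold lower in members of the library labelled Bap1ΔMPC, and of the 7016 with 100 or more UMIs 19 (0.271%) and 31 (0.442%). The interval lay wholly past 3-fold for 15 higher and 6 lower genes, and the median log2 ratio of all genes was 0.15. The log2 ratio of TMM factors was 0.20, and under TMM scaling 66 genes were higher and 240 lower, so that 21.6% of the genes past 3-fold were higher in place of 38.4%. Without the 42 members of the library labelled Bap1ΔMPC that lay mostly among cells of the library labelled Bap1WT, 257 were higher and 260 lower.

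Dlk1, an imprinted inhibitor of adipocyte differentiation, had the highest ratio among genes with 100 or more UMIs. It was at 41.9 and 641 CPM in members of the library labelled Bap1WT and the library labelled Bap1ΔMPC (log2 ratio 3.94), and 1 cell of the library labelled Bap1ΔMPC held 35.1% of its UMIs there, without which the level was 423 CPM. In comparison cells Dlk1 was at 290.1 and 459 CPM, a log2 ratio of 0.66. Ccnd1, a cell cycle cyclin, was at 22.5 and 102 CPM in members and 50.5 and 53.3 CPM in comparison cells, with a UMI in 14.8% and 45.1% of members. The metalloprotease Adam12 was at 7.03 and 63.6 CPM in members and 14.6 and 111 CPM in comparison cells. The lipid chaperone Fabp4 was at 9.56 and 54.2 CPM and 5.16 and 62.7 CPM, and the interferon-induced Ifi27l2a at 38.2 and 209.5 CPM and 126 and 411 CPM. Adam12, Fabp4 and Ifi27l2a were higher in the library labelled Bap1ΔMPC in both groups of cells, and Ccnd1 nearly level in comparison cells.

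The other genes among the 10 highest were Thbs4, Hist1h1c, Spon1, Ndnf and Comp. Thbs4 was at 49.6 and 262 CPM in members, with UMIs in 13 of the 82 members of the library labelled Bap1ΔMPC and 37.1% of them in 1 cell. Comp, a cartilage and tendon matrix protein, was at 12.7 and 52.1 CPM, and 1 cell held 39 of its 50 UMIs in the library labelled Bap1ΔMPC. Without that cell Comp was at 11.6 CPM there, and its direction turned after thinning to 6000 UMIs, at a log2 ratio of -0.97.

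Slc11a1, a metal transporter, had the lowest ratio among genes with 100 or more UMIs. It had 178 UMIs in 106 of 586 members of the library labelled Bap1WT and 2 UMIs in 2 of 82 members of the library labelled Bap1ΔMPC, 25.03 and 2.08 CPM (log2 ratio -3.59, interval -6.64 to -1.71), and was at 0.7300 and 0.823 CPM in comparison cells. Sfrp2 was at 308 and 39.6 CPM in members and 335 and 60.2 CPM in comparison cells, log2 ratios of -2.96 and -2.48. Rgs16 was at 33.3 and 4.17 CPM in members (-3.00, -4.89 to -1.62) and Bmp3, a ligand of the BMP family, at 21.5 and 3.13 CPM (-2.78, -5.08 to -1.21). Pcdh20, Camk4, Cldn22, Kdr, Nap1l5 and Hpgd were the others, at log2 ratios of -3.38 to -2.57, and Kdr, with its 2 UMIs in the library labelled Bap1ΔMPC in 1 cell, turned to 0.93 after thinning. All of the 10 but Sfrp2 had 4 or fewer UMIs in members of the library labelled Bap1ΔMPC.

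**Figure D4:**
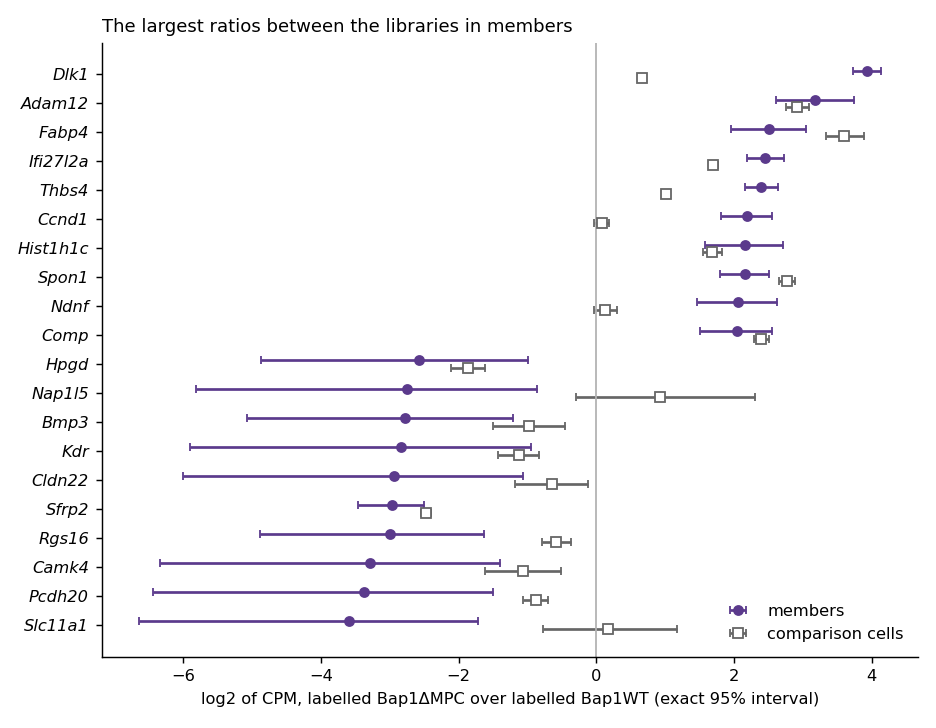
Log2 of CPM in the library labelled Bap1ΔMPC over CPM in the library labelled Bap1WT, with exact 95% intervals, for the 10 highest and 10 lowest genes in members and the same genes in comparison cells. Dlk1 lies at 3.94 in members and 0.66 in comparison cells, and the intervals of the lowest genes in members are wide.

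Genes chosen for a difference between the libraries were mostly nearer to 0 in the group of cells that did not choose them. Of genes with 100 or more UMIs in members, 46 were over 3-fold lower in comparison cells of the library labelled Bap1ΔMPC, with a median log2 ratio of -1.89, and the same genes had a median of -0.81 in members, 43 of the 46 nearer to 0. The 23 genes over 3-fold higher had medians of 1.98 and 1.54, 20 of them nearer to 0 in members. Chosen on members instead, the 19 higher genes had medians of 2.04 in members and 1.69 in comparison cells and the 31 lower genes -2.08 and -0.97, with 7 and 2 nearer to 0 in members. Over all 7016 genes 39.5% were nearer to 0 in members. Mgp had log2 ratios of -2.37 in comparison cells and -0.47 in members, Cpz -1.97 and -0.79, and Osr1 -1.55 and -0.12. Bap1 was at 17.9 against 17.7 CPM in members and comparison cells of the library labelled Bap1WT and at 18.8 against 21.8 CPM in the library labelled Bap1ΔMPC.

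Each cell was placed among its 20 nearest cells of both libraries on 8 principal components of 4989 variable genes without the genes of the rule. Members of the library labelled Bap1ΔMPC had on average 46.0% of neighbors from the library labelled Bap1WT, and 42 of 82 (51.2%, interval 39.9 to 62.4) had more than 50%. For comparison cells of the library labelled Bap1ΔMPC the values were 6.01% and 128 of 2865 (4.47%, 3.74 to 5.29). Members and comparison cells of the library labelled Bap1WT had 94.2% and 91.6%. Neighbors that were themselves members made up 62.5% for members and 6.65% for comparison cells of the library labelled Bap1WT, and 36.2% and 1.40% in the library labelled Bap1ΔMPC. Of the 668 members 586 lie in the library labelled Bap1WT, so a cell near members lies near that library.

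The 42 members of the library labelled Bap1ΔMPC with mostly Bap1WT-labelled neighbors and the other 40 were close in Hhip (236 and 201 CPM) and Osr1 (194 and 162 CPM). Gdf10 was at 599 and 724 CPM. They stood apart in Mgp (6267 and 2408 CPM), Pltp (163 and 52.5 CPM), Cpz (364 and 142 CPM), Dlk1 (132 and 1246 CPM) and Thbs4 (11.5 and 559 CPM). In members of the library labelled Bap1WT Mgp was at 6248 CPM and Pltp at 147 CPM, near the levels of the 42 cells, but Sfrp2 was at 308 CPM there against 32.6 in the 42 cells, Inmt at 83.8 against 17.3, Ccnd1 at 22.5 against 121 and Dlk1 at 41.9 against 132 CPM. Bap1 was at 13.4 and 25.1 CPM, 7 and 11 UMIs. The cells were split by their expression, so these values are a description.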

How the data were processed

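The deposited values are raw UMI counts per gene and cell, which the authors made with Cell Ranger 3.1.0 on mm10 from 10x 3' libraries. Per the labels, bcl2fastq 2.20.0, FastQC 0.11.7, R 3.6.1 and Seurat 3.2.1 were also used. Per the study's methods, cells passed quality control and doublet gating, and those with high levels of markers of muscle cells other than FAPs were removed. Deposited cells all had 1501 to 4998 genes. Every cell was used. UMIs were summed over members or comparison cells and given as CPM, with exact intervals of the ratio from the conditional binomial distribution (Python 3.11.15, scipy 1.17.1, pandas 2.3.3). With 1 library per genotype no test was made, and intervals cover counting error only. Genes were named by rule: Inmt and Art4, the 10 highest and lowest genes within both libraries and between them, the leading genes of each list, and genes said to be chosen after their values were seen. Members and the 26 gene lists written by hand were chosen with earlier results of these data known, and the Hedgehog list was added later. TMM factors came from edgeR 4.0.16 in R 4.3.3, and nearest neighbors from scikit-learn 1.9.0. The Scrublet function of scanpy 1.11.5 marked 4 of 8481 cells (0.0472%), after the doublet gating before deposit. Alternatives covered the limits of the rule, thinning, scaling, folds, UMI minimums, cycling cells and shared barcodes. The summing and ratio steps were tested on simulated data. Promoter windows came from RefSeq tables on GRCm38.p6. Some results on single genes are not reported here.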

Additional observations from a re-analysis of the deposited data

Results flagged for a closer look

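For 2 genes the ratio of members over comparison cells was below 1 in the library labelled Bap1WT and above 1 in the library labelled Bap1ΔMPC, and this difference was not tested. Fibin had log2 ratios of -1.63 (17.01 against 52.7 CPM) and 1.57 (66.7 against 22.5 CPM), and 1 cell held 71.9% of its 64 UMIs in members of the library labelled Bap1ΔMPC, where its level without that cell was 19.03 CPM. Fgf1, a fibroblast growth factor, had log2 ratios of -1.67 (7.59 against 24.2 CPM) and 1.12 (34.4 against 15.9 CPM), the latter from 33 UMIs in 15 of 82 members.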

How the results depend on the processing

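No paired analysis was possible because there is only 1 library of either genotype, which also leaves no replicate to drop. The share of members in the library labelled Bap1WT was 11.1% with 3 or more UMIs of the 3 genes, 11.7% with 2 or more per 10000, 15.7% without the limit on Cxcl14, 17.3% without that on Hmcn1, Meox1 and Etv4, 10.6% after thinning to 6000 UMIs, 12.7% with Fmo2 alone and 17.5% with the 10 leading genes. In the library labelled Bap1ΔMPC it was 1.35% with 3 or more UMIs and after thinning, 1.42% with Fmo2 alone and 5.62% with the 10 leading genes. The settings with Fmo2 alone and with the 10 leading genes, and leaving out the members whose neighbors are mostly Bap1WT-labelled, were chosen after seeing the data. With the 10 leading genes P was the only upper limit.

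Counts of genes moved with the fold and the UMI minimum by construction. At 1.5-fold they were 589 higher and 1819 lower in the library labelled Bap1WT, 360 and 1131 in the library labelled Bap1ΔMPC, 133 and 467 in both, and 1639 and 1027 between libraries. At 3-fold within libraries they were 123 and 341, 31 and 140, and 13 and 61, and at 2-fold between them 461 and 463. With 5 times the minimum they were 136 and 379, 30 and 83, 10 and 53, and 19 and 31 between libraries, and 10 of the 30 genes leading in the library labelled Bap1ΔMPC were over 2-fold in the other. With no minimum beyond 1 UMI they were 573 and 960 in the library labelled Bap1ΔMPC, 169 and 344 in both, and 425 higher between libraries. Thinning left 72 higher in the library labelled Bap1ΔMPC and 24 in both, and TMM scaling 66 higher between libraries. Without the 42 members with mostly Bap1WT-labelled neighbors they were 62 and 251, 18 and 94, and 257 and 260, and 12 of the 30 leading genes were over 2-fold. The cause of the last was not tested, beyond the smaller number of cells.

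Of 1216 values of 64 results on single genes 1074 stayed within their interval, 139 moved and 3 turned. Some of these values could not move. The ratio of a gene does not depend on the UMI minimum or on the limit on mean expression, so those settings returned the main value. Ratios between libraries do not depend on the choice of comparison cells. Ratios within the library labelled Bap1WT do not depend on members left out of the other library. The 1074 include such values. Comp between libraries went to -0.97 on the log2 scale after thinning and to -0.07 without cells with 5 or more cell cycle UMIs, and Kdr to 0.93 after thinning. The small number of cells limits the 82 members of the library labelled Bap1ΔMPC, where 9 of the 10 genes lowest between libraries had 4 or fewer UMIs.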
